A study of Mus musculus with 6 samples.

Results

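The ERK feedback genes are transcripts that rise when the RAS, RAF, MEK and ERK kinase cascade is active and whose proteins act back on that cascade or carry its output. The group held 10 genes, chosen by symbol out of the 21878 gene symbols in the deposited expression table. They were the phosphatases Dusp1, Dusp4, Dusp5 and Dusp6, the adaptor-like inhibitors Spry2, Spry4, Spred1 and Spred2, and the ETS transcription factors Etv4 and Etv5. The expression values came from RNA-seq of input RNA of a MeRIP-seq experiment, that is, total RNA before pull-down of m6A-marked fragments, in HT22 cells, an immortalized mouse hippocampal neuronal line. There were 3 libraries of a control group and 3 of a group exposed to aluminum (Al) as 120 µM aluminum maltolate, AlCl3 mixed with maltol as a chelating ligand. The study used a general treatment time of 24 h. It described a medium-only group, named Control, and a maltol-only control, without stating which of them was sequenced. In preliminary experiments it found no significant effect of maltol on cell viability or senescence markers. Because the sequenced control is not stated, the effect of Al on these transcripts and that of maltol cannot be told apart. All libraries came from the same unmodified line, and the submitters described them as biological triplicates.

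Growth factors binding receptor tyrosine kinases load RAS with GTP, RAS activates RAF kinases, RAF phosphorylates MEK and MEK phosphorylates ERK. Active ERK switches on immediate early genes and, with them, its own brakes: dual-specificity phosphatases remove phosphate from MAP kinases, Sprouty proteins interfere with signalling between the receptor and RAF, and Spred proteins bring the RAS GTPase activating protein neurofibromin to the membrane. Transcripts of these brakes and of the PEA3 factors Etv4 and Etv5 are widely used as a readout of pathway output, although some of them, Dusp1 above all, are also induced by the stress kinases JNK and p38 and by cAMP signalling.

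The depth of the libraries was recovered from the steps of the FPKM values, which are fragment numbers divided by gene length and by the size of the library. It ranged from 37768842 to 44220124 reads in genes in the control group and from 20973691 to 26487603 in the Al group. The 50 most abundant genes held 18.04% to 19.4% of the summed FPKM in control libraries and 30.01% to 32.5% in Al libraries, and fold changes depended on how the libraries were scaled to each other. The values were therefore also divided by a size factor for each library, the median ratio of its genes to their geometric mean. Without this step the median log2 difference of all tested genes moved by -0.46, and with each library scaled to an equal sum (TPM) by -0.75. Of 11 neuronal markers, 2 passed the filter on low values, while Nefm and Snap25 were listed at 0 in every library. Tubb3 had a mean deposited FPKM of 5.32 in control and 3.40 in Al, and Syp had 0.294 and 0.216. With size factors neither was called, at log2 fold changes of -0.19 (limma adjusted P = 0.404) and -0.16 (limma adjusted P = 0.781). Of 15 glial, microglial, endothelial and fibroblast markers 7 were tested, of which 3 were called higher (Col1a1, Pecam1 and Cx3cr1) and 1 lower (Dcn), and their summed scaled FPKM ranged from 1706 to 2682 in control and from 3030.5 to 4298 in Al libraries, most of it collagen. The endothelial marker Pecam1 had a mean FPKM of 0.058 in control and 0.211 in Al, and the microglial marker Cx3cr1 had 0.0665 and 0.542. Each of these passed the filter of 0.1 only through the Al group. Aif1, also microglial, went the other way, with 0.793 and 0.315, and was not called (limma adjusted P = 0.0836). The astrocyte marker Aqp4 was listed at 0 in every library, and Aldh1l1, with 0.148 and 0.126, was not called. Gfap, Ptprc and Cdh5 did not pass the filter. The fibroblast collagen gene Col1a1 had a mean FPKM of 990.0 in control and 1327 in Al, in groups that overlapped as deposited. Col1a2, another collagen gene, had 1657 and 1619 and was not called (log2 fold change 0.47, limma adjusted P = 0.186). Dcn, a fibroblast proteoglycan, had 9.63 and 1.94. The neuronal label was thus not borne out by most defining markers, and the part of these levels in the results was not tested. In bulk RNA, a change in the mix of cells and a change of RNA within each cell cannot be told apart.

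The sequences upstream of 4 members are shown because these genes, all induced by growth factor signalling, differed in their response, from a large rise (Spry2, Dusp6) through a smaller one (Dusp5) to no call (Dusp1). Each was read from the RefSeq promoter table for the GRCm38.p6 assembly, which held 7 of the 10 members, and runs 5′ to 3′ on the strand of the gene from 250 bases before its RefSeq start up to the first base that GENCODE places in an exon of the gene. Capitals mark matches, on either strand, to the cAMP response element (CRE, TGACGTCA), the AP-1 site (TGANTCA) and an extended ETS site (CCGGAAG). An EGR site (GCGTGGGCG) and the CArG box bound by serum response factor were marked in the same way. The windows are chr14:105896820-105897069 (minus strand) for Spry2, chr10:99262981-99263230 (plus strand) for Dusp6, chr19:53528895-53529108 (plus strand) for Dusp5 and chr17:26508520-26508722 (minus strand) for Dusp1.
Spry2: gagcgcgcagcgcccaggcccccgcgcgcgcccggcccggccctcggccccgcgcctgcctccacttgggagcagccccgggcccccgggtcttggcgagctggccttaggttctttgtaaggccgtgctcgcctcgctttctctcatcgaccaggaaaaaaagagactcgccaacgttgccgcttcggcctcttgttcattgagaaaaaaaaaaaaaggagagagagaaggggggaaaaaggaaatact
Dusp6: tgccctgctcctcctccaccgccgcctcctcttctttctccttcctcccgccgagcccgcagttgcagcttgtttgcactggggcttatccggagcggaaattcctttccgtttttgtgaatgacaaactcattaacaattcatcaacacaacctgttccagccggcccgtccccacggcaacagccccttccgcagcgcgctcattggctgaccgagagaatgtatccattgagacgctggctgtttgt
Dusp5: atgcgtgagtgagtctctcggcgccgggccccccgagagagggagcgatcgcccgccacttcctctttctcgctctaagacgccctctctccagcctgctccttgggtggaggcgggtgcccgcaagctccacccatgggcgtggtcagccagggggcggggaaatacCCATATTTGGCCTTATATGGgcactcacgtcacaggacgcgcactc
Dusp1: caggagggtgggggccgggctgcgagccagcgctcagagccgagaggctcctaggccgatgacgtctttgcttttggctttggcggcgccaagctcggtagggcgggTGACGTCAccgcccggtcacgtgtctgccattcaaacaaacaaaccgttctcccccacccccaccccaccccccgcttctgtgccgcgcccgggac

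Dusp1 held 1 CRE, beginning 143 bases before its start, and Dusp5 held 2 adjoining CArG boxes, beginning 82 and 72 bases before its start. Over all 32851 promoter windows of 250 bases, 1.55% held a CRE, 1.47% a CArG box and 6.75% an AP-1 site. The extended ETS site was held by 6.91% and the EGR site by 0.536%. None of these letters occurred in the windows of Spry2 and Dusp6. The same was true of the windows of Spred1, Spred2 and Etv5. Shorter or variant forms of these sites were not searched, so they may be present unmarked. The table used here had no entry for Dusp4, Spry4 and Etv4.

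Al exposure was accompanied by higher transcript levels of 7 of the 10 feedback genes: Spry4, Spry2, Dusp6, Dusp4, Etv4, Dusp5 and Spred2. A gene was called, by the thresholds of the study, where the unadjusted limma P was under 0.05 and its log2 fold change was above 0.58 or below -0.58. No member was called lower, and Dusp1, Spred1 and Etv5 were not called. Over all 12889 tested genes 26.2% were called higher and 24.4% lower. With Benjamini-Hochberg adjusted P in place of unadjusted P, 7 members were again called higher, against 25.5% of all tested genes. The median log2 fold change of the members was 1.09, while that of all tested genes was 0.03, with quartiles at -0.62 and 0.69. In 8 members every Al library lay above every control library after scaling, as did 35.1% of all tested genes. In the deposited values this held for 5 members, against 20.1% of all tested genes, and Dusp1 went the other way, with every Al library below every control library, as did 50.1% of all tested genes. As deposited 6 members were called higher and none lower, against 14.0% and 42.0% of all tested genes. Under TPM scaling Dusp6, Spry2 and Spry4 were called higher and Dusp1 was called lower, against 9.31% and 53.1% of all tested genes. Every member lay above the median of all tested genes under size factors, deposited values and TPM, and 9 of 10 did under quantile normalization.

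**Figure D1:**
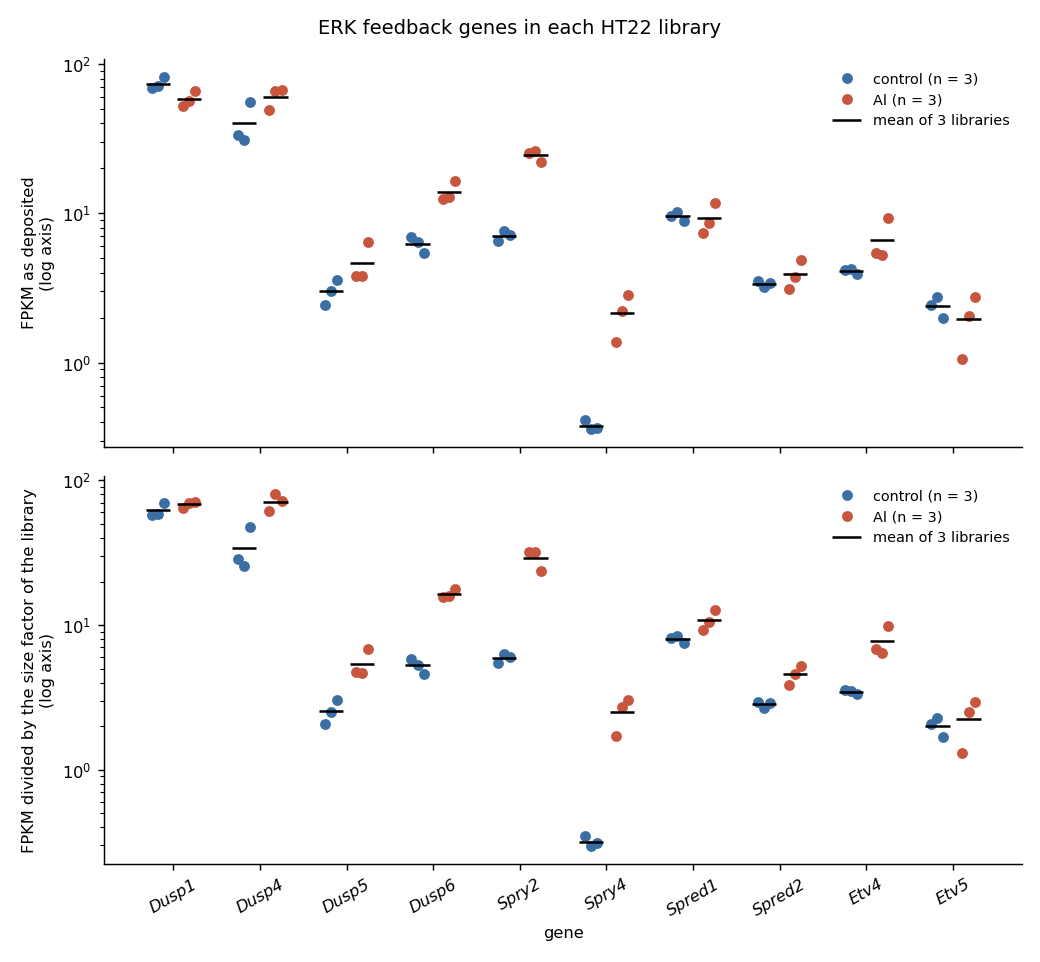
FPKM of the 10 feedback genes in each of the 3 control and 3 Al libraries, on a log axis, as deposited (top) and divided by the size factor of the library (bottom); points are libraries and bars are the mean of 3. The Al points of Dusp6, Spry2 and Spry4 lie clear above the control points in both panels, whereas those of Dusp1 lie below control in the top panel and overlap the control points in the bottom one.

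Among the phosphatases, Dusp6, a cytoplasmic phosphatase that acts on ERK in preference to JNK and p38, had the largest log2 fold change. Its deposited FPKM was 6.92, 6.44 and 5.39 in control libraries 1, 2 and 3 and 12.5, 12.9 and 16.5 in Al libraries 1, 2 and 3. Every Al library lay above every control library, with or without scaling. The scaled mean rose from 5.25 ± 0.629 (SD, n = 3) to 16.4 ± 1.15 (SD, n = 3), 3.12-fold, with a log2 fold change of 1.63 (SE 0.12, limma adjusted P = 1.83e-05). The gene lies on chromosome 10 at 99263231 to 99267489 of GRCm38, plus strand, and its value rested on 672 to 975 reads per library. Its log2 fold change lay between 0.85 and 1.72 over all alternative settings and the call was kept in each of them.

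Dusp4, a nuclear phosphatase for ERK and, in some cells, JNK, had the highest FPKM of the members after Dusp1 in control cells. Its FPKM was 33.7, 31.2 and 55.6 in control and 49.1, 65.9 and 66.7 in Al libraries. Control library 3 stood above the other control libraries and above Al library 1 in the deposited values, and the groups separated only after scaling. The log2 fold change was 1.11 (SE 0.22, limma adjusted P = 0.00215) and fell to 0.33, no longer called, under TPM scaling.

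Dusp5, a nuclear phosphatase specific for ERK, had a FPKM of 2.43, 3.01 and 3.58 in control and 3.798, 3.803 and 6.39 in Al libraries. The groups did not overlap as deposited or scaled, but the gap between control library 3 and Al library 1 was, as deposited, small beside the spread in the Al group. The scaled mean rose from 2.53 ± 0.497 (SD, n = 3) to 5.42 ± 1.25 (SD, n = 3), with a log2 fold change of 1.06 (SE 0.20, limma adjusted P = 0.00195). The value rested on 96 to 184 reads per library, few beside the other phosphatases, and under TPM scaling it was 0.30 and not called. In GENCODE an exon of AC137853.2 lies on the opposite strand over exons of Dusp5 (chromosome 19, 53529109 to 53542431 of GRCm38), and whether counting used the strand is not given in the sources used here.

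Dusp1, an immediate early phosphatase that acts on p38 and JNK as well as ERK, had the highest FPKM of the members in control cells and was not called. Its FPKM was 68.7, 71.2 and 82.4 in control and 52.0, 56.9 and 66.5 in Al libraries. Al lay below control throughout as deposited, but after scaling the groups overlapped, at 58.0, 58.9 and 70.2 in control and 64.8, 69.9 and 71.3 in Al. The log2 fold change was 0.14 with size factors (SE 0.11, limma adjusted P = 0.280, 95% interval -0.11 to 0.39), -0.34 as deposited, -0.32 with quantile normalization and -0.64 with TPM scaling, where it was called lower. Dusp1 (chromosome 17, 26505590 to 26562128 of GRCm38, minus strand) shares exon sequence with Ergic1 on the opposite strand in GENCODE, and reads of the pair may not have been told apart.

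The Sprouty genes showed the largest differences of the group. Spry2 encodes an inhibitor that ERK signalling induces and that binds GRB2 and RAF. Its FPKM was 6.49, 7.59 and 7.11 in control and 25.5, 26.2 and 22.1 in Al libraries. The lowest Al value was far above the highest control value. The scaled mean went from 5.94 ± 0.415 (SD, n = 3) to 29.2 ± 4.77 (SD, n = 3), 4.92-fold, with a log2 fold change of 2.27 (SE 0.14, limma adjusted P = 8.61e-06). Of all tested genes 1.95% had a larger log2 fold change. The gene lies on chromosome 14 at 105891947 to 105896819 of GRCm38, minus strand.

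Spry4, a close relative with the same kind of activity, had the lowest FPKM of the members in control cells. Its FPKM was 0.412, 0.356 and 0.367 in control and 1.37, 2.21 and 2.84 in Al libraries. These values rested on 71 to 75 reads in control and 168 to 275 reads in Al libraries, and the Al libraries spread widely while the control libraries lay close together. The scaled mean rose 7.82-fold, and the log2 fold change was 2.59 (SE 0.26, limma adjusted P = 5.80e-05), between 1.38 and 2.89 over all alternative settings.

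The Spred genes had smaller log2 fold changes than the Sprouty genes. Spred1, which links neurofibromin to RAS, had a FPKM of 9.58, 10.2 and 8.87 in control and 7.42, 8.62 and 11.8 in Al libraries. The Al values spanned the control values as deposited and lay above them after scaling. With size factors the log2 fold change was 0.42 (SE 0.13, limma adjusted P = 0.0227), short of the fold threshold, and became -0.06 as deposited and -0.36 under TPM scaling.

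Spred2, its nearest relative in sequence and function, had a FPKM of 3.50, 3.22 and 3.40 in control and 3.09, 3.72 and 4.89 in Al libraries. Only after scaling did all Al libraries exceed the control libraries. The log2 fold change was 0.65 (SE 0.15, limma adjusted P = 0.00569), which is near the threshold of 0.58. It was not called as deposited (0.18), under TPM scaling (-0.11), with a pseudocount of 1 (0.53) or without Al replicate 3 (0.56). The FPKM of Spred2 implies a gene length of 33954 bases, against 4619 bases of GENCODE exons, so its level per length was not set beside that of other genes, while its fold change does not depend on the length.

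Of the PEA3 factors, ETS proteins that act downstream of fibroblast growth factor signalling, Etv4 rose. Its FPKM was 4.19, 4.21 and 3.90 in control and 5.44, 5.24 and 9.24 in Al libraries. All Al libraries were above control, with Al library 3 far above Al libraries 1 and 2. Its log2 fold change was 1.11 (SE 0.17, limma adjusted P = 0.000655) and 0.34, not called, under TPM scaling.

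Etv5, which often changes together with Etv4, had a FPKM of 2.44, 2.74 and 1.98 in control and 1.05, 2.05 and 2.73 in Al libraries. The groups overlapped on either scale, and Al library 1 was the lowest of all 6. The log2 fold change was 0.10 (SE 0.29, limma adjusted P = 0.778, 95% interval -0.55 to 0.75). Its sign turned as deposited (-0.37), under TPM scaling (-0.65) and without control replicate 3 or either of Al replicates 2 and 3, so no direction can be given.

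**Figure D2:**
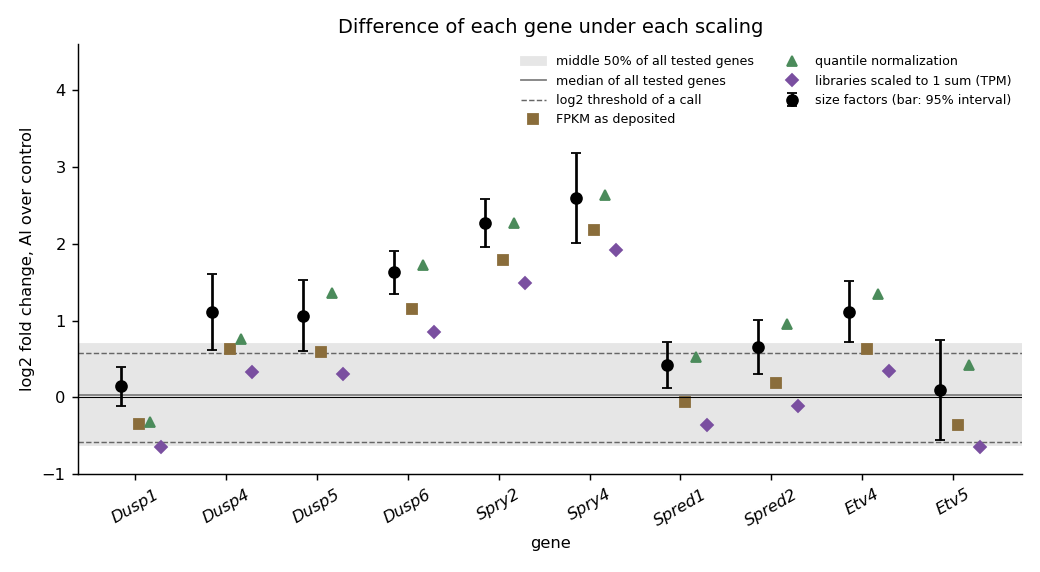
Log2 fold change of each feedback gene, Al over control, with size factors (black, bars are 95% intervals), with FPKM as deposited (squares), with quantile normalization (triangles) and with TPM scaling (diamonds); the grey band is the middle 50% of all tested genes and dashed lines mark 0.58 and -0.58. Dusp6, Spry2 and Spry4 lie above the upper dashed line under every scaling, while Dusp1, Spred1, Spred2 and Etv5 have values on either side of 0.

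Levels are set side by side per length, with the gene lengths that the deposited FPKM implies. These differ from the GENCODE exon lengths for several members, at 3399 against 2087 bases for Spry2, 1164 against 2473 for Dusp5 and 1957 against 3311 for Dusp1, so the order of neighbours depends on the lengths used. In control cells the mean FPKM was 74.1 for Dusp1, 40.2 for Dusp4, 9.53 for Spred1, 7.06 for Spry2, 6.25 for Dusp6, 4.10 for Etv4, 3.01 for Dusp5, 2.39 for Etv5 and 0.378 for Spry4. The ranges of Spry2 and Dusp6 overlapped, as did those of Dusp5 and Etv5. In Al cells the mean FPKM was 60.6 for Dusp4, 58.5 for Dusp1, 24.6 for Spry2, 13.98 for Dusp6, 9.28 for Spred1, 6.64 for Etv4, 4.66 for Dusp5, 2.14 for Spry4 and 1.95 for Etv5. Here the ranges of Dusp4 and Dusp1, of Spred1 and Etv4, of Etv4 and Dusp5 and of Spry4 and Etv5 overlapped.

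Ratios within a library compare members of a family with little influence of the scaling between libraries. Exact two-sided permutation tests were made on 6 pairs, and with 3 libraries against 3 the smallest possible P is 0.1. The log2 ratio of Dusp1 to Dusp6 was 3.29, 3.44 and 3.90 in control and 2.05, 2.13 and 2.004 in Al libraries. It was lower in every Al library, by -1.48 on average (exact permutation P = 0.1, adjusted over the pairs P = 0.2). The log2 ratio of Etv4 to Etv5 was 0.75, 0.60 and 0.94 in control and 2.28, 1.32 and 1.72 in Al libraries. It was higher in every Al library, with a mean difference of 1.01 (exact permutation P = 0.1, adjusted P = 0.2). The log2 ratio of Spred1 to Spred2 differed by -0.23, again with no overlap between the groups (exact permutation P = 0.1, adjusted P = 0.2). The differences for Dusp4 to Dusp6 (-0.51, exact permutation P = 0.3), Dusp5 to Dusp6 (-0.56, P = 0.2) and Spry2 to Spry4 (-0.32, P = 0.6) were seen in groups that overlapped. The last of these turned to 0.73 with a pseudocount of 1, which weighs on the low level of Spry4 in control cells. No pair passed the adjustment, and the design did not allow any to do so.

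**Figure D3:**
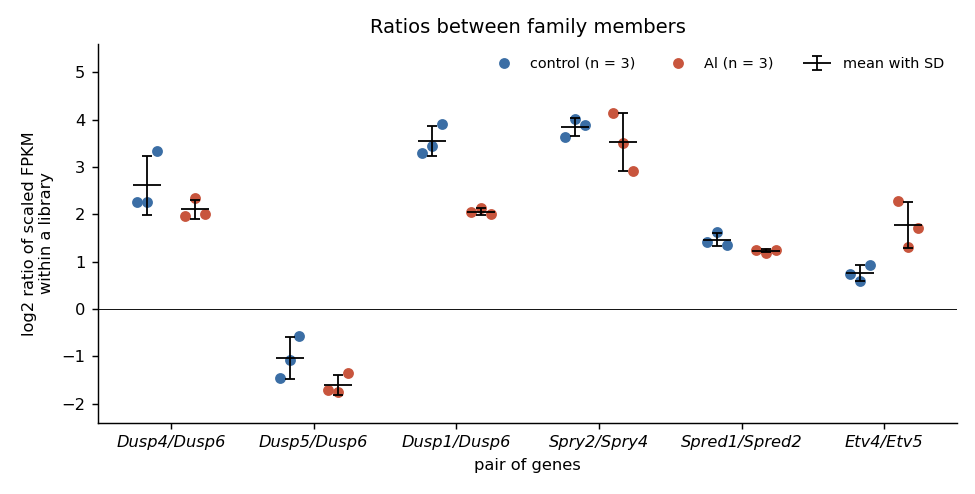
Log2 ratio of scaled FPKM between family members within each of the 3 control and 3 Al libraries; points are libraries and crosses give the mean with SD. The groups lie apart for Dusp1/Dusp6, with control at 3.29 to 3.90 and Al at 2.004 to 2.13, for Spred1/Spred2 and for Etv4/Etv5, and overlap for the other pairs.

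The rest of the pathway was described through 9 lists of 121 genes outside the members, of which 103 were tested. In all, 34 of them (33.01%) were called higher and 27 (26.2%) lower, against the 26.2% and 24.4% of all tested genes given above. The counts of each list below are to be read against these shares. They were 14.0% and 42.0% as deposited and 9.31% and 53.1% under TPM scaling. Where a list had 5 or fewer calls and a gene fell outside the fixed naming rule, the gene was named after its values were seen. Paralogues of the members had 5 of 8 tested genes called higher (Spred3, Dusp16, Dusp7, Spry1 and Dusp9) and none lower, with a median log2 fold change of 0.67. Spred3, the third Spred protein, had a FPKM of 1.44, 1.69 and 1.47 in control and 2.90, 3.34 and 5.19 in Al libraries. Its log2 fold change of 1.68 (SE 0.19, limma adjusted P = 0.000120) was larger than those of Spred1 and Spred2, a difference that was not tested. Dusp16, a phosphatase for JNK and p38, had a log2 fold change of 1.003 (SE 0.19, limma adjusted P = 0.00167), and was not called as deposited (0.52) or under TPM scaling (0.22). As deposited and under TPM scaling 1 paralogue was called higher and 2 were called lower, counts to be read against the shares of all tested genes at those scalings given above.

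The other ERK-induced genes, immediate early and later targets of the pathway, had 13 of 14 tested genes called higher and none lower, and a median log2 fold change of 1.36. Fos, the immediate early AP-1 subunit, had a FPKM of 2.71, 2.11 and 2.24 in control and 6.95, 8.503 and 6.45 in Al libraries, with a log2 fold change of 2.06 (SE 0.18, limma adjusted P = 3.47e-05). The AP-1 subunit Fosl1, which accumulates under sustained ERK activity, went from a mean FPKM of 2.97 to 17.4, with a log2 fold change of 3.02 (SE 0.23). Ier3, an early response gene, went from 29.2 to 181.4, with a log2 fold change of 3.21 (SE 0.33), and control library 3, at 48.0, stood above control libraries 1 and 2, at 19.4 and 20.4. Egr1, a zinc finger factor, and Ccnd1, the cyclin that drives entry into the cell cycle, had smaller log2 fold changes of 0.92 and 1.04, which were 0.43 and 0.55 as deposited and 0.13 and 0.26 under TPM scaling, below the fold threshold. The exception was Ier2, an immediate early gene, at 0.06 (limma adjusted P = 0.573), which turned to -0.42 as deposited, -0.72 under TPM scaling and -0.21 under quantile normalization. As deposited 9 genes of the list were called higher and none lower, and under TPM scaling 7 higher and 1 lower.

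**Figure D4:**
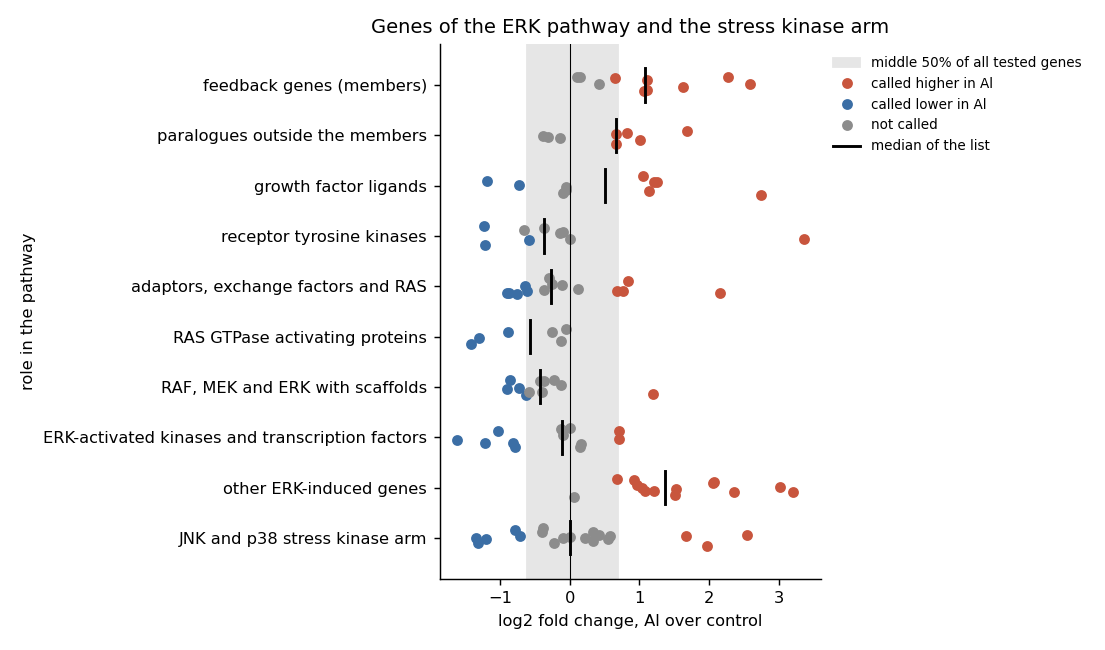
Log2 fold change, Al over control, of each tested gene by its role in the pathway; points are genes coloured by call, black bars are list medians and the grey band is the middle 50% of all tested genes. The feedback genes and the other ERK-induced genes have medians of 1.09 and 1.36, to the right of the band. The medians of all other lists lie within the band. Those of receptors, adaptors, RAS GTPase activating proteins, the RAF, MEK and ERK kinases and the ERK-activated kinases and transcription factors lie left of 0.

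Upstream of the cascade, 5 of 10 tested growth factor ligands were called higher (Hbegf, Ereg, Areg, Igf1 and Egf) and 2 lower (Fgf10 and Pdgfb). Hbegf, a ligand of the EGF receptor that is itself an ERK target, had a FPKM of 1.55, 2.20 and 1.597 in control and 7.58, 9.32 and 9.99 in Al libraries, with a log2 fold change of 2.75 (SE 0.16, limma adjusted P = 8.11e-06). Ereg, another ligand of that receptor, had a log2 fold change of 1.25 (SE 0.28, limma adjusted P = 0.00464) at a mean FPKM of 1.01 in control and 1.80 in Al. The higher calls of Areg, at 4 to 29 reads per library, and of Igf1 rested on overlapping groups and did not pass the adjustment (limma adjusted P = 0.0755 and 0.0644). The count of higher calls was 3 at adjusted P, with quantile normalization and without control replicate 2 or Al replicate 1. With a pseudocount of 1, or with only genes whose mean FPKM reached 1, 2 ligands were called higher and none lower. As deposited 2 ligands were called higher and 2 lower, and under TPM scaling 1 higher and 5 lower. Of 9 tested receptor tyrosine kinases, 3 were called lower (Egfr, Pdgfra and Erbb2) and 1 higher (Fgfr4). Fgfr4, at 0, 0 and 8 reads in control libraries, passed the filter on low values only through the Al group, and no receptor was called higher among genes whose mean FPKM reached 1. As deposited 7 were called lower, against 42.0% of all tested genes, and under TPM scaling 8, against 53.1%, with 1 called higher in each. The receptor for Hbegf and Ereg, Egfr, fell from a FPKM of 4.35, 3.36 and 1.98 in control to 0.978, 0.760 and 0.919 in Al libraries, with a log2 fold change of -1.24 (SE 0.28, limma adjusted P = 0.00441). Pdgfra, a receptor for platelet-derived growth factors, had a log2 fold change of -1.22 (SE 0.30, limma adjusted P = 0.00709).

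Between receptor and kinases, 4 of 14 tested adaptors, exchange factors and RAS genes were called higher (Frs3, Frs2, Grb2 and Hras) and 5 lower, among them Rras, Sos1, Mras and Shc1. As deposited the counts were 1 higher and 9 lower, and under TPM scaling 1 and 10. At those scalings 42.0% and 53.1% of all tested genes were called lower. Under quantile normalization the counts were 2 and 4, and without Al replicate 2 only 3 were called lower. Frs2 and Frs3, the docking proteins of fibroblast growth factor receptors, had log2 fold changes of 0.83 (SE 0.10) and 2.16 (SE 0.32). Frs2 was not called as deposited (0.35) or under TPM scaling (0.05), while Frs3 kept its call under all alternative settings. Sos1, an exchange factor that loads RAS with GTP, fell from a mean FPKM of 21.3 to 8.33, a log2 fold change of -0.87 (SE 0.12, limma adjusted P = 0.000255). Of 6 RAS GTPase activating proteins, which switch RAS off, 3 were called lower, among them Rasa3 and Rasal2, and none higher, and 4 were called lower as deposited and 6 under TPM scaling. Rasa3 had a log2 fold change of -1.42 (SE 0.11).

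In the kinase cascade itself, of 11 tested RAF, MEK, ERK and scaffold genes, 4 were called lower (Braf, Map2k1, Mapk3 and Ksr1) and 1 higher (Pebp1), shares to be read against the 24.4% and 26.2% of all tested genes. Mapk3, which encodes ERK1, had a FPKM of 66.4, 61.7 and 58.7 in control and 28.0, 26.8 and 25.5 in Al libraries, with a log2 fold change of -0.73 (SE 0.12, limma adjusted P = 0.000718). Braf and Map2k1, a RAF kinase and a MEK kinase, had log2 fold changes of -0.89 (SE 0.19) and -0.86 (SE 0.19). Pebp1, a protein that binds RAF and keeps it from MEK, rose by a log2 fold change of 1.20 (SE 0.23, limma adjusted P = 0.00181), and Al library 3, at a FPKM of 366.5, was below Al libraries 1 and 2, at 551.1 and 549.1. As deposited 10 genes of this list were called lower and 1 higher, and under TPM scaling 10 lower and none higher. Pebp1 was not called under TPM scaling (0.41) or quantile normalization (0.38).

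Below ERK, 2 of 12 tested kinases and transcription factors were called higher (Ets1 and Rps6ka4) and 5 lower (Rps6ka3, Mknk1, Ets2, Mknk2 and Rps6ka2). Rps6ka3, which encodes the ERK-activated kinase RSK2, had a log2 fold change of -1.62 (SE 0.11, limma adjusted P = 1.39e-05), and Mknk1, an ERK-activated kinase of the translation factor eIF4E, had a log2 fold change of -1.22 (SE 0.16). Ets1 and Rps6ka4, each with a log2 fold change of 0.70, went to -0.08 under TPM scaling. No gene of the list was called higher as deposited, under TPM scaling or under quantile normalization. Lower calls numbered 6 as deposited and 9 under TPM scaling, against 42.0% and 53.1% of all tested genes.

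The stress kinase arm, which shares substrates of Dusp1, Dusp4 and Dusp16, had 3 of 19 tested genes called higher (Gadd45b, Gadd45g and Jun) and 5 lower (Map2k6, Mapk10, Mapk9, Map2k7 and Mapk11), with a median log2 fold change of 0.00. Mapk10, at a mean FPKM of 0.387 in control and 0.0673 in Al, passed the filter only through the control group. Without Al replicate 2 or Al replicate 3 there were 5 higher calls, and without Al replicate 1 there were 3 lower calls. Gadd45b, a stress-induced regulator of the p38 and JNK route, had a FPKM of 21.3, 24.6 and 29.2 in control and 131.3, 113.7 and 75.4 in Al libraries. Its log2 fold change was 2.55 (SE 0.24, limma adjusted P = 5.02e-05), and that of its relative Gadd45g was 1.98 (SE 0.28). Mapk9, which encodes JNK2, and Map2k6, which activates p38, had log2 fold changes of -1.20 (SE 0.12) and -1.35 (SE 0.20). As deposited and under TPM scaling 3 genes were likewise called higher, while 9 and 10 genes of the list were called lower. Of all tested genes 24.4% were called lower with size factors, 42.0% as deposited and 53.1% under TPM scaling. The shares called higher were 26.2%, 14.0% and 9.31%. Phosphorylation was not measured, so these transcripts are levels of mRNA and not of kinase activity.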

How the data were processed

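Input RNA of the MeRIP-seq experiment in HT22 cells was measured in 6 libraries, titled C for the control group and M for the other; M was read as Al, since the design text names only these groups. Per the labels, libraries were made with a stranded mRNA kit and processed with fastp, HISAT2 and HTSeq on GRCm39, whereas the methods name Trimmomatic, SortMeRNA and GRCm38 and the design text a genome of another species. The build is thus unsettled, and coordinates here are those of GENCODE M21 on GRCm38 for the gene of the same symbol. The authors deposited FPKM per gene symbol, not counts, so DESeq2, which the authors used, was replaced by limma.

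From the deposited FPKM, whole reads were recovered for 17688 of 17688 genes above 0 (tolerance 0.001 read, smallest whole numbers that fit), which gave the relative depth. FPKM was divided by median-of-ratios size factors (0.802 to 1.21, over 10337 genes), log2-transformed with a pseudocount of 0.1 and fitted with limma 3.58.1 (R 4.3.3, trend) over 12889 genes whose mean FPKM reached 0.1, which all 10 members did. Fold changes on this scale understate those of low genes. P values measure the spread between these cultures. Sums and ratios used Python 3.11.15 with scipy 1.17.1, and the fit was tested on simulated data. The simulation had balanced changes and no shift in composition between the groups, so it does not bear on the choice of scaling. The alternatives were deposited values, TPM and quantile scaling, other pseudocounts and filters, no trend, a replicate block, voom on recovered reads, adjusted P and leaving out each library. The members and lists were chosen with earlier results of these data known. Genes named outside the members were, per list, up to 2 called genes in each direction with the largest change, a mean FPKM not under 1 and groups that did not overlap, plus Mapk3, Egr1, Fos and Ccnd1; some genes this rule takes in are not reported here.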

Additional observations from a re-analysis of the deposited data

How the results depend on the processing

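The scaling between libraries decided most of what changed. With FPKM as deposited, 1805 genes were called higher and 5417 lower, and 18 of the pathway genes outside the members higher and 49 lower. Under TPM scaling these counts were 1200 and 6843 over all genes and 14 and 61 over the pathway genes. At that scaling 3 members were called higher and 1 lower. Single genes were followed through the settings only for the members, the genes of the fixed naming rule and Ier2. Losses of calls of other genes named above, such as Dusp7, Grb2 and Hras, show only in the counts per list. As deposited, log2 fold changes turned in sign for Dusp1 (-0.34), Spred1 (-0.063), Etv5 (-0.37) and Ier2 (-0.42), and calls were lost for Spred2 (0.18), Dusp16 (0.52), Frs2 (0.35), Ets1 (0.22), Rps6ka4 (0.21), Egr1 (0.43) and Ccnd1 (0.55). Under TPM scaling the sign turned for Dusp1 (-0.64), Spred1 (-0.36), Spred2 (-0.11), Etv5 (-0.65), Ets1 (-0.079), Rps6ka4 (-0.084) and Ier2 (-0.72), and calls were lost for Dusp4 (0.33), Dusp5 (0.30), Etv4 (0.34), Dusp16 (0.22), Ereg (0.52), Frs2 (0.05), Pebp1 (0.41), Egr1 (0.13) and Ccnd1 (0.26). Quantile normalization turned Dusp1 (-0.32) and Ier2 (-0.21) and ended the calls of Pebp1 (0.38), Braf (-0.57), Ets1 (0.52) and Rps6ka4 (0.34). With a pseudocount of 1 Spred2 was at 0.53, and the log2 ratio of Spry2 to Spry4 differed by 0.73. Leaving out each library in turn gave 0.56 to 0.77 for Spred2, lowest without Al replicate 3, and -0.11 to 0.43 for Etv5, which was -0.03 without control replicate 3 and -0.01 without Al replicate 2, and between 6 and 7 members called higher. Why the scalings differed was not tested.

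Control and Al libraries share replicate numbers, but deviations from the group means correlated at -0.03, -0.03 and -0.07 between same-numbered libraries, so the numbers were not taken to pair cultures. With the replicate block 3352 genes were called higher and 3123 lower, 7 members were called higher, and no call of a member or named gene changed. With 3 libraries per group, a single gene cannot go below an exact permutation P of 0.1, and Spry4 and Dusp5 rest on few reads.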

Other observations

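Within the Al group, library 3 had the highest scaled value of 8 of the 10 feedback genes, library 2 that of Dusp4 and Spry2, and library 1 that of none. Over all 12889 tested genes, library 3 was the highest Al library for 42.2%, library 2 for 27.4% and library 1 for 30.4%. In the deposited FPKM, library 3 was highest for 9 members and for 59.7% of all tested genes. Spry2 was the exception among the members, with its lowest Al value in library 3, at a FPKM of 22.1 beside 25.5 and 26.2. The log2 values spread more in the Al group than in the control group for 7 of 10 members and for 74.7% of all tested genes. Without Al replicate 3 the log2 fold changes of Dusp6, Spry2 and Spry4 were 1.58, 2.42 and 2.45.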
